A study of Mus musculus with 10 samples.

Results

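The genes described here are 10 genes known from the ventral telencephalon, the part of the forebrain below the cortex: Dlx1, Dlx2, Dlx5, Dlx6, Gsx2, Nkx2-1, Lhx6, Gad2, Isl1 and Olig1. They were taken by name, as every probe whose only gene symbol in the platform annotation was one of these, which gave 12 probes of the 21766 on the array, for 10 of 15063 named genes. Lhx6 and Gad2 each had 2 probes and the other 8 genes had 1. All samples were neocortex from mouse embryos at E11.5, from an inbred strain (C57) or an outbred stock (MF1), with no allele or agent given in the labels. In each pool, tissue from the rostral end and tissue from the caudal end of the neocortex of 3 embryos gave a pair of RNAs that were amplified and hybridised together on a 2-colour array, and again on a second array with Cy3 and Cy5 exchanged. There were 2 C57 pools on 4 arrays and 3 MF1 pools on 6 arrays. The series text speaks of a further C57 set, which was not analysed here. A pool mixes embryos and every cell type in the dissected tissue, so in these bulk samples fewer cells of a type and less RNA per cell cannot be told apart.

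In the embryonic forebrain, the ventral ganglionic eminences are patterned by Sonic hedgehog and make the GABA-releasing neurons, some of which later migrate up into the cortex. Gsx2 and Nkx2-1 are homeobox genes that mark ventral progenitors, the first of the lateral and the second of the medial ganglionic eminence. Both act before the Dlx homeobox genes, which drive the GABAergic fate, while dorsal cortical progenitors keep these genes low. Dlx1 with Dlx2, and Dlx5 with Dlx6, are neighbouring gene pairs that share enhancers. Lhx6 is a LIM homeobox gene of neurons leaving the medial eminence, Gad2 encodes a GABA-synthesising enzyme, Isl1 is a LIM homeobox gene of striatal precursors, and Olig1 is a bHLH factor of ventral and oligodendrocyte progenitors. Rostral and caudal neocortex were compared to find genes that differ along the axis on which cortical areas form, and the strains served to separate regional from strain differences.

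Each value is the log2 of caudal RNA over rostral RNA for a probe, so a negative value means more RNA at the rostral end. This direction is likely, not stated: it reads the deposited ratio as Cy5 over Cy3 from the dye labels. Genes with known gradients were chosen with their values known, so they cannot test this direction. Nr2f1 (caudal) stood at 1.85 ± 0.22 and 0.57 ± 0.20 (SE). The rostral FGF-induced genes Spry1, Etv1 and Dusp6 stood at -1.28 ± 0.14, -1.43 ± 0.22 and -1.07 ± 0.22. These lay on their textbook side. Emx2 (caudal), at 0.10 ± 0.15, was close to the median of all tested probes, 0.09. So was Pax6 (rostral), at 0.10 ± 0.17 for probe 1 and 0.02 ± 0.14 for probe 2. With the other reading every sign would turn. The deposited table holds no intensities, so how strongly any of the 10 genes, or any marker of cortex, was expressed in these samples is not known. The arrays gave a ratio for 13723 to 20870 probes, fewer in MF1 (13723 to 18288) than in C57 (20191 to 20870), and the number of arrays limits the precision.

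The arrays were noisy. Once both were turned to caudal over rostral, the paired arrays of a pool had Pearson correlations of -0.12 to 0.01 across the 11855 tested probes, and the sign was the same in both dye orders for 55.3% of probe and pool combinations. The 12 probes were much like this, with the same sign in 33 of 56 combinations. The pools, averaged over both dye orders, had correlations with each other of -0.22 to 0.22 across probes, which are not independent replicates. Their medians over tested probes ran from -0.18 to 0.36, so a shift of this size is shared by most probes of a pool. Ratios were more widely spread in the MF1 pools (SD across probes 0.55 to 0.77) than in the C57 pools (0.45 and 0.30).

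Dlx1 and Dlx2 had the lowest ratios of the 12 probes over both strains, and lay further to the rostral side in MF1 than in C57. None of the 10 genes passed limma's test adjusted over all probes, in either strain or over both. Because Dlx1 and Dlx2 carry the pattern described below, the sequence around each annotated start is shown, from 250 bases before to 50 after it, as RefSeq gives it for GRCm38.p6. The Dlx1 sequence is chr2:71529195-71529494 on the plus strand and the Dlx2 sequence chr2:71546705-71547004 on the minus strand, and no other protein-coding gene starts between these neighbours. Capitals mark, on either strand, the GC-box core GGGCGG, the CCAAT box and the E-box letters CANNTG, which do not overlap each other here.
Dlx1: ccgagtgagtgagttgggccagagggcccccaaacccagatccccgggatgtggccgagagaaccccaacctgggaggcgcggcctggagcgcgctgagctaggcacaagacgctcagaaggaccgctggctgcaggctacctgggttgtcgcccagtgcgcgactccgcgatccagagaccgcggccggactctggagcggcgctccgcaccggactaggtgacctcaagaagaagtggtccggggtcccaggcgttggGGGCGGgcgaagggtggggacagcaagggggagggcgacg
Dlx2: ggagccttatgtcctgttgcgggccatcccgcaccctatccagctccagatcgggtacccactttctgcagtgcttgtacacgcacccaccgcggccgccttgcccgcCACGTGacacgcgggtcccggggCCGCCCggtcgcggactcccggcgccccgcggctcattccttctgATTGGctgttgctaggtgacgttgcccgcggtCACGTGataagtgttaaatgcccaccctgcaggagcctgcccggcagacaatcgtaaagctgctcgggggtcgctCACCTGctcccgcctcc

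Both windows were rich in CpG, with 27 for Dlx1 and 29 for Dlx2 against a median of 7 in 32851 annotated promoters of the same length. Each held 1 GGGCGG, a motif found in 35.7% of those promoters. Dlx2 alone of the pair held CCAAT, once (37.4% of promoters), and CANNTG, at 3 places (72.3%). TAATT, the core that Dlx and other homeodomain proteins bind, was in neither window and in 27.0% of all promoters, and TATAAA was in neither and in 13.6%. Of the other members, Gsx2, Nkx2-1, Lhx6, Gad2 and Isl1 were in the same table. TAATT was found once in the Gsx2 window and once at 1 of 3 annotated starts of Lhx6. These letters describe the windows, and no binding was measured.

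Dlx2 encodes a homeodomain protein needed with Dlx1 for ventral neurogenesis. Its ratio was -0.06 and 0.17 in C57 pools 1 and 2, and -1.55, -1.86 and -1.32 in MF1 pools 1, 2 and 3. The 3 MF1 pools were all low and did not overlap the C57 pools. For 15.2% of probes, every MF1 pool lay below every C57 pool. Among tested probes, its MF1 pools stood at percentiles 2.48, 1.42 and 1.49, and its C57 pools at 56.6 and 13.2. It was in the lowest 5% in each MF1 pool, as were 13 of the 8924 probes measured in all of them (0.146%). The single MF1 arrays gave -0.46, -2.83 and -1.51 with caudal RNA in Cy5 and -2.64, -0.90 and -1.13 with caudal RNA in Cy3. All 6 arrays were thus below 0, although the size varied widely between paired arrays. In C57 the arrays of pool 1 went opposite ways, at -0.68 and 0.56, and those of pool 2 gave 0.17 and 0.16. The fitted ratio was -1.58 ± 0.19 in MF1 (SE, n = 3 pools, 2.99-fold lower caudally, limma adjusted p = 0.446) and 0.06 ± 0.24 in C57 (n = 2 pools, adjusted p = 1). With the median of every array set to 0, the C57 value was -0.04.

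Dlx1, the partner gene of Dlx2, had ratios of -0.84, -2.18 and -2.05 in MF1 pools 1 to 3, against -0.47 and -0.09 in C57. Every pool was below 0, and the lowest values were those of MF1 pools 2 and 3. The log2 ratios of the strains did not overlap, with MF1 lower, as for 15.2% of probes. Its percentiles among tested probes were 8.40, 0.873 and 0.528 in MF1, and 14.4 and 3.13 in C57. By percentile, then, the strains did overlap. On the single MF1 arrays the ratio was -1.12, -2.13 and -1.63 with caudal RNA in Cy5, and -0.57, -2.23 and -2.47 with caudal RNA in Cy3. Paired arrays were closer for Dlx1 than for Dlx2 in MF1 pools 1 and 2, and again all 6 were below 0. In C57 the 4 arrays gave -0.86 and -0.08 for pool 1 and 0.32 and -0.51 for pool 2, so the sign in pool 2 depended on the dye. The fitted ratio was -1.69 ± 0.31 in MF1 (n = 3 pools, 3.23-fold lower caudally, limma adjusted p = 0.712) and -0.28 ± 0.38 in C57 (n = 2 pools, adjusted p = 1). The C57 value of Dlx1 was -0.38 with the median of every array set to 0, and -0.59 with the arrays scaled as well.

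Over both strains, Dlx1 stood at -0.99 ± 0.24 (n = 5 pools, 95% interval -1.59 to -0.38, limma adjusted p = 0.983) and Dlx2 at -0.76 ± 0.15 (-1.14 to -0.38, adjusted p = 0.983). For both genes the log2 ratios of the C57 and MF1 pools did not overlap, and these means lie between the strains. That separation, every MF1 pool below every C57 pool, held for 15.2% of probes. By an exact two-sided test that changes the signs of whole pools, Dlx1 gave p = 0.0625, the smallest that 5 pools allow, and Dlx2 p = 0.1875. The median of all tested probes was 0.09 over both strains, so both genes lay further from the bulk of probes than from 0.

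**Figure D1:**
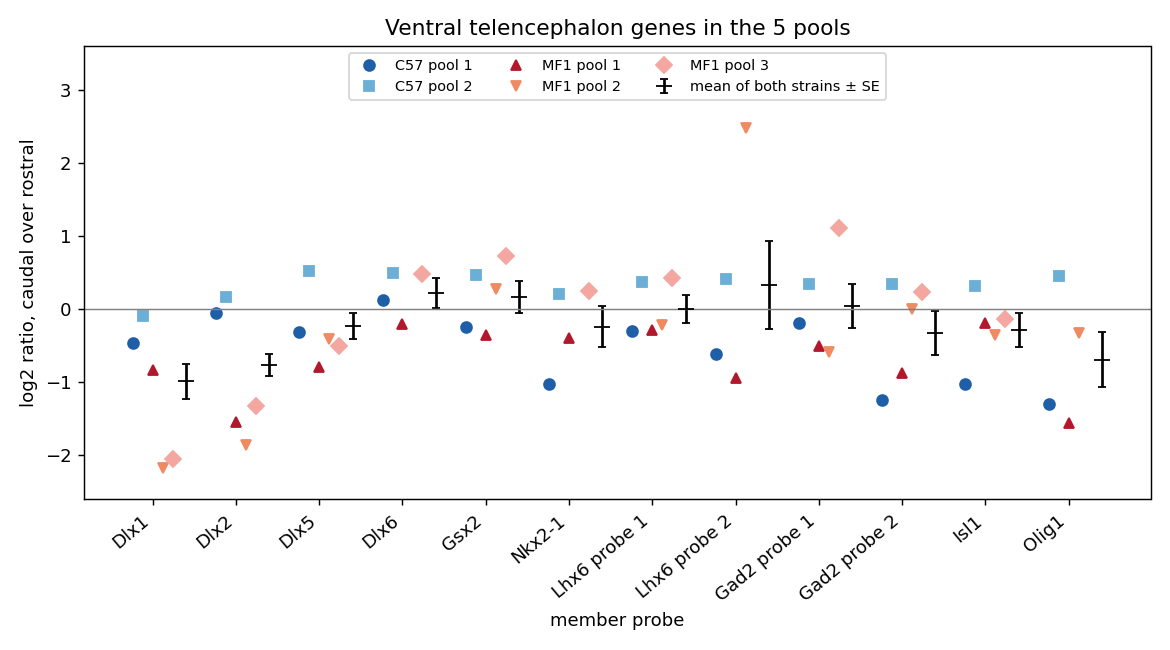
Log2 ratio of caudal over rostral RNA (vertical axis) for the 12 probes of the 10 ventral telencephalon genes (horizontal axis). Each coloured point is 1 pool, the mean of its 2 dye-exchanged arrays, and the black bar is the mean of both strains with limma's SE. The MF1 pools of Dlx2 sit between -1.86 and -1.32 and its C57 pools at -0.06 and 0.17, whereas most other probes have pools on both sides of 0.

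The ratios of the Dlx5 and Dlx6 pair lay closer to 0. Dlx5, a homeobox gene expressed after Dlx1 and Dlx2 in the same lineage, had ratios of -0.32 and 0.52 in C57 and -0.79, -0.41 and -0.50 in MF1. The MF1 pools again lay below both C57 pools, by a smaller margin, as did those of 15.2% of probes by any margin. Its fitted ratio was -0.56 ± 0.23 in MF1 (n = 3 pools, limma adjusted p = 0.995) and 0.10 ± 0.28 in C57, with a mean over strains of -0.23 ± 0.18. On the MF1 arrays it was -0.54, 0.02 and -0.30 with caudal RNA in Cy5 and -1.04, -0.84 and -0.69 with the dyes exchanged, so 5 of 6 arrays were below 0. Dlx6 had 0.13 and 0.49 in C57 and -0.21 and 0.48 in MF1 pools 1 and 3. Pool 2 lacked a ratio in one dye order and the other array gave 0.17. The mean over strains was 0.22 ± 0.20 (n = 4 pools), on the caudal side, and its values were mixed between the strains. Dlx6 lies within Dlx6os1, an RNA gene annotated as its opposite-strand transcript, and without the strand of the probe the 2 transcripts cannot be told apart.

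The progenitor genes upstream of Dlx showed no shared side. Gsx2 was the most repeatable of the 12 probes, with the same sign in both dye orders in all 5 pools. Its pools nevertheless went both ways, at -0.24 and 0.46 in C57 and -0.35, 0.28 and 0.72 in MF1, with a mean over strains of 0.16 ± 0.22 (95% interval -0.38 to 0.70, limma adjusted p = 0.983). Nkx2-1 had -1.03 and 0.20 in C57, -0.39 and 0.25 in MF1 pools 1 and 3, and a mean of -0.24 ± 0.28 (n = 4 pools, -0.96 to 0.48). In MF1 pool 2 it was measured on 1 array only, at -2.23. The Nkx2-1 arrays followed the dye: of the 4 pools with both dye orders, 1 had the same sign in both. With only the arrays that carried rostral RNA in Cy5 the mean was -0.84.

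Olig1 was low in some pools but not in a repeatable way. Its pools were at -1.30 and 0.45 in C57 and -1.56 and -0.33 in MF1 pools 1 and 2, with a mean of -0.69 ± 0.38 (n = 4 pools, 95% interval -1.69 to 0.32, limma adjusted p = 0.983). The low value of MF1 pool 1 joined 1.20 on one array and -4.32 on the other, and that of pool 2 joined 1.15 and -1.81. With only the arrays that carried caudal RNA in Cy5, the mean over strains turned to 0.63. Isl1 was at -1.03 and 0.31 in C57 and at -0.19, -0.35 and -0.14 in MF1. All MF1 pools were slightly below 0, but 2 of 5 pools had the same sign in both dye orders. Its mean was -0.29 ± 0.23 (n = 5 pools, -0.85 to 0.26, limma adjusted p = 0.983).

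The genes of postmitotic GABAergic neurons, each read by 2 probes, gave values around 0. Lhx6 probe 1 had a mean of 0.00 ± 0.19 (n = 5 pools, 95% interval -0.47 to 0.48), with pools at -0.30 and 0.37 in C57 and -0.29, -0.22 and 0.42 in MF1. Lhx6 probe 2 had 0.33 ± 0.60 (n = 4 pools, -1.25 to 1.92), because MF1 pool 2 stood at 2.48, the mean of 5.32 on one array and -0.36 on the other. Gad2 probe 1 had 0.04 ± 0.30 (n = 5 pools, -0.70 to 0.78) and Gad2 probe 2 had -0.33 ± 0.30 (-1.07 to 0.41). For probe 1 the highest pool, MF1 pool 3 at 1.11, joined 2.99 and -0.76. For probe 2 the lowest pools were C57 pool 1 at -1.25 and MF1 pool 1 at -0.88, and the others lay from 0.00 to 0.34. The intervals of these 4 probes leave room for a change of either sign.

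**Figure D2:**
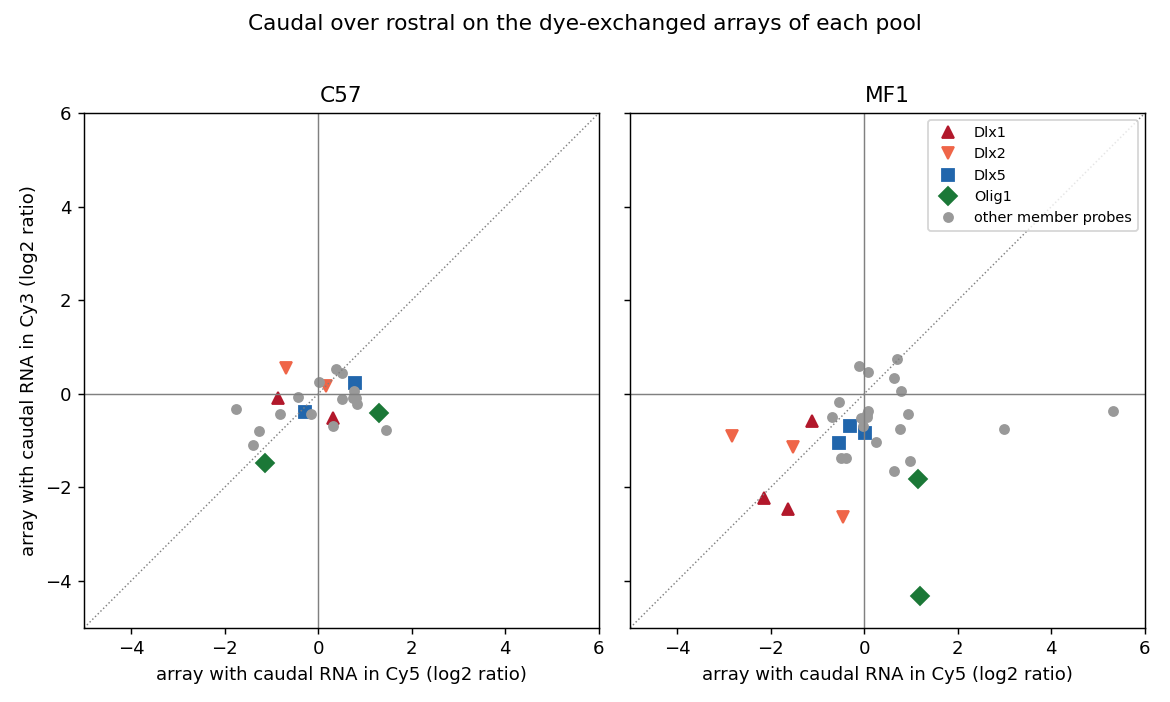
Caudal over rostral log2 ratio of the member probes on the array with caudal RNA in Cy5 (horizontal axis) and on its dye-exchanged partner (vertical axis), 1 point per probe and pool, with C57 on the left and MF1 on the right; the dotted line marks equal values. Points in the lower left were below 0 in both dye orders: all 3 MF1 pools of Dlx1 and of Dlx2 are there, while the MF1 pools of Olig1 are in the lower right, at 1.20 and -4.32 and at 1.15 and -1.81.

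The 12 probes were then counted together. Over both strains, 7 of 12 had a ratio below 0, against 30.6% of all tested probes, and their median was -0.24, against 0.09. With arrays centred, 9 of 12 lay below 0, against 40.8%, and the count was also 9 of 12 in C57 alone (40.3%) and in MF1 alone (45.3%). An unadjusted limma p under 0.05 was reached by 2 of 12, Dlx1 and Dlx2, against 3.1% of all probes. Both lay on the rostral side, where 1.11% of all probes reached it. At an adjusted p under 0.05 there were 0 of 12 and 0 of 11855 probes (0%). The median rests on single pools, and that of all probes moved with it. Without C57 pool 1 it was 0.07, above 0 (0.19 for all probes). Without C57 pool 2 it was -0.50 (-0.01 for all probes). Both medians also moved with the dye. With only the arrays that had caudal RNA in Cy5, 4 of 12 probes lay below 0 (median 0.09, all probes 0.25). With only those that had rostral RNA in Cy5, 10 of 12 did (median -0.56, all probes -0.11). The median of the 12 stayed below that of all probes in each of these settings.

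By pool, the probes below 0 were 11 of 12 in C57 pool 1 (63.9% of all probes), 1 of 12 in C57 pool 2 (4.53%), 12 of 12 in MF1 pool 1 (75.3%), 7 of 10 in MF1 pool 2 (39.1%) and 4 of 10 in MF1 pool 3 (35.5%). The share of members thus moved with the share of all probes from pool to pool. Of 8 probes measured in every pool, Dlx1 alone was below 0 in all 5 (0.728% of probes), and none of the 8 was below 0 on all 10 arrays (0.213%). Dlx1, Dlx2, Dlx5 and Isl1 were below 0 in all 3 MF1 pools (11.4% of probes). On all 6 MF1 arrays, Dlx1 and Dlx2 were below 0, which held for 169 of 8924 probes (1.89%). In C57, Dlx1 was the 1 of 12 below 0 in both pools (3.19%), and Dlx6 the 1 of 12 above 0 on all 4 arrays (10.4%).

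In C57 alone, 6 of 12 probes lay below 0 (22.3% of all probes), with a median of -0.03 against 0.13 for all probes. Their ratios ran from -0.45 for Gad2 probe 2 to 0.31 for Dlx6, and 0 of 12 had an unadjusted limma p under 0.05, against 1.81% of all probes (0.363% on the rostral side). In MF1 alone, 8 of 12 lay below 0 (44.8%), with a median of -0.14 against 0.03 and a range from -1.69 for Dlx1 to 0.77 for Lhx6 probe 2. Dlx1 and Dlx2 were the 2 of 12 with an unadjusted p under 0.05 on the rostral side, against 2.40% of probes there and 3.96% on either side. The MF1 count below 0 was 3 of 12 with only caudal RNA in Cy5 (median 0.19, all probes 0.22). It was 11 of 12 with only rostral RNA in Cy5 (median -0.86, all probes -0.18). No probe of the array passed the adjusted threshold in either strain.

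The test of MF1 minus C57 asks whether the regional ratio differed between the strains. For Dlx2 the difference was -1.63 ± 0.31 (95% interval -2.40 to -0.87, limma adjusted p = 0.999), and for Dlx1 -1.41 ± 0.49 (-2.62 to -0.20, adjusted p = 0.999). Neither passed. They were the 2 of 12 members with an unadjusted p under 0.05 and a difference below 0, against 1.33% of all probes (1.88% in either direction). For Dlx1 the unadjusted p no longer lay under 0.05 with arrays centred, with either dye order alone, with the pool number as a replicate block, with a looser probe filter, or when any 1 pool but MF1 pool 1 was left out. For Dlx2 it did not with only caudal RNA in Cy5. The difference was below 0 for 7 of 12 members and 61.6% of all probes. It was below 0 for 11 of 12 members without C57 pool 1 (median of all probes -0.31). Without C57 pool 2 this held for 3 of 12 (median of all probes 0.13). Dlx5 differed by -0.66 ± 0.36 (-1.57 to 0.24), and Olig1 by -0.52 ± 0.77 (-2.53 to 1.49). Dlx1, Dlx2 and Dlx5 had every MF1 pool below every C57 pool, 3 of the 8 members with all pools, and so had 15.2% of probes. The other 8 probes differed by -0.17 to 0.87, with intervals that all include 0. With each array centred and scaled, the Dlx1 difference was smaller, at -0.79, and without MF1 pool 1 it was larger, at -1.83.

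**Figure D3:**
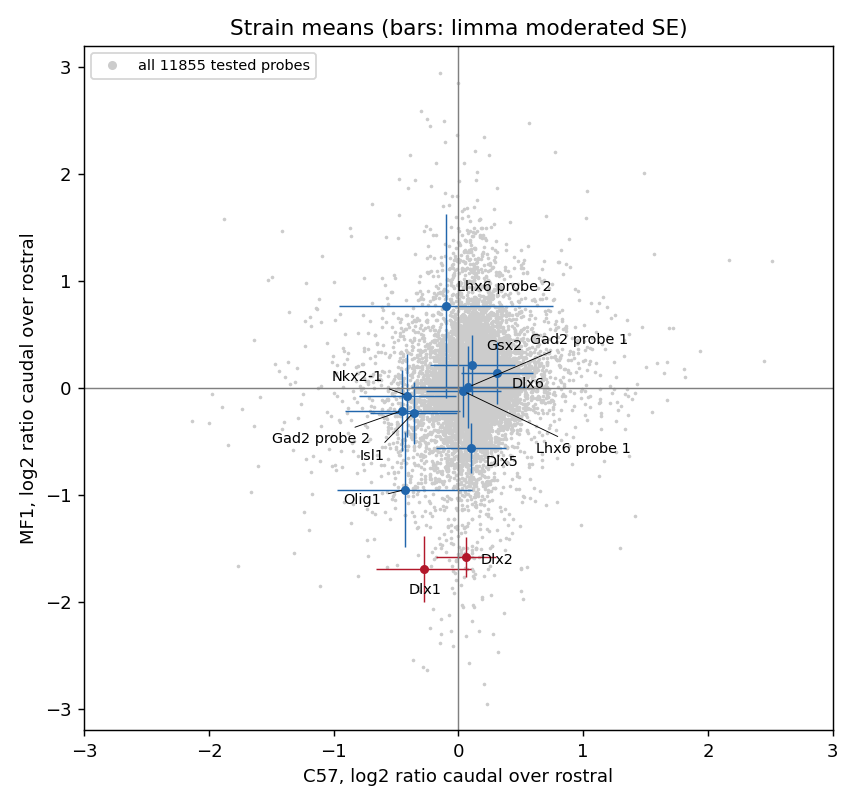
Mean caudal over rostral log2 ratio in C57 (horizontal axis, 2 pools) and MF1 (vertical axis, 2 or 3 pools, 2 for Dlx6, Nkx2-1, Lhx6 probe 2 and Olig1); grey points are all 11855 tested probes, coloured points the 12 member probes with limma's SE in both directions. Dlx1 at -0.28 and -1.69 and Dlx2 at 0.06 and -1.58, in red, lie below the other 10 member probes, in blue, on the MF1 axis only. The next lowest there is Olig1, at -0.95 ± 0.54, and its SE bar overlaps theirs.

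Other genes of the ventral lineage were read from a list of 39, of which 15 could be tested. Of these, 5 had a ratio below 0 and 10 above it over both strains (30.6% of all probes were below). The median was 0.07, close to the 0.09 of all probes. None passed the adjusted test. An unadjusted limma p under 0.05 was reached by 2 of 15, against 3.1% of all probes. Both lay on the rostral side, where 1.11% of all probes reached it. Foxp2, a forkhead gene of striatal and other neurons, had 0.15 and -0.36 in C57 and -1.22 and -1.0 in MF1 pools 1 and 3, with a mean of -0.61 ± 0.18 (n = 4 pools, limma adjusted p = 0.983) and a difference between strains of -1.01 ± 0.36. On the C57 arrays Foxp2 changed sign with the dye, at -0.52 and 0.83 in pool 1 and 0.30 and -1.01 in pool 2. In MF1 pool 2 Foxp2 was measured on 1 array only, at -0.24. Ebf1, a striatal transcription factor, had -0.88 and -0.15 in C57 and -0.76 and -0.84 in MF1. The Ebf1 mean was -0.66 ± 0.20 (n = 4 pools). In MF1 10 of the 15 lay below 0 (44.8% of all probes). Sst and Npy, peptides of cortical interneurons, had means of 0.15 ± 0.34 and 0.11 ± 0.18.

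Sonic hedgehog signalling, which induces ventral identity, was covered by 10 tested probes for 9 of 18 listed genes. Over both strains 4 were below 0 and 6 above (30.6% of all probes were below). The median was 0.05, against 0.09 for all probes. Gas1, a hedgehog co-receptor, was the 1 of 10 with an unadjusted limma p under 0.05 over both strains (3.1% of all probes). It was below 0 in all 5 pools, as were 0.728% of probes measured in every pool. Its pools stood at -0.55 and -0.43 in C57 and -0.22, -0.63 and -1.22 in MF1. The mean of Gas1 was -0.59 ± 0.19 (n = 5 pools, limma adjusted p = 0.983). Gli3, the transcription factor that represses ventral fate in the cortex, had the smallest p of the list for the strain difference. That difference was 1.05 ± 1.07 (limma adjusted p = 0.999), and the MF1 pools of Gli3 ranged from -0.42 to 3.31. The highest, MF1 pool 2, joined 5.97 on one array and 0.64 on the other. Smo, the signal transducer, stood at 0.06 ± 0.16.

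Markers of the dorsal cortex mostly had ratios above 0, as most probes of the array had. Of 16 tested probes for 14 of 21 listed genes, 14 had a ratio above 0 and 2 below (30.6% of all probes were below). The median was 0.13, against 0.09 for all probes. Neurod1, a proneural gene of cortical neurons, was positive in every pool, at 0.74 and 0.92 in C57 and 0.64, 0.54 and 0.75 in MF1, with a mean of 0.74 ± 0.14 (n = 5 pools, limma adjusted p = 0.983). Neurog2, the proneural factor of dorsal progenitors, had a strain difference of -0.62 ± 0.31 (limma adjusted p = 0.999). The MF1 minus C57 difference was below 0 for 15 of the 16 dorsal probes (61.6% of all probes). Its median over these was -0.32, against -0.10 for all probes. In MF1 the dorsal median was -0.02, against 0.03 for all probes, and 9 of 16 probes were below 0 (44.8% of all probes).

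Markers of surface ectoderm, which is no part of the neocortex, included some with low MF1 ratios, as Dlx1 and Dlx2 had. Krt18, a keratin of simple epithelia, had -0.56 and -0.01 in C57 and -2.41 and -2.80 in MF1 pools 2 and 3, and a strain difference of -2.32 ± 0.39 (n = 4 pools, limma adjusted p = 0.999). Trp63, a transcription factor of stratified epithelia, was chosen after its values were seen. It had -0.20 and -0.50 in C57 and -1.24, -1.02 and -1.48 in MF1. Krt18 in MF1 pool 3 joined -5.23 on one array and -0.37 on the other. Trp63 joined 0.61 and -3.10 in MF1 pool 1, and 1.25 and -2.25 in C57 pool 2. In MF1 pools 2 and 3 both Trp63 arrays were below 0. Krt5 at 0.08, Krt19 at 0.02 and Cldn6 at 0.16 lay above 0 in MF1. The whole list of 9 tested probes had 7 below 0 over both strains (30.6% of all probes) and 6 of 9 in MF1 (44.8%), with MF1 ratios from -2.61 to 0.16. Its part in the Dlx result was not tested. By pool, the list median ran from -0.65 to -0.17 in MF1 (all probes -0.18 to 0.15). The C57 pools gave -0.20 and 0.23 (all probes -0.10 and 0.36).

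Tissues next to the cortex were read in the same way. Diencephalon, hypothalamus and eye markers had 4 of 11 tested probes below 0 in MF1 (44.8% of all probes). Their median was 0.10 in MF1 and -0.06 in C57, against 0.03 and 0.13 for all probes. Nkx2-4, a homeobox gene of the hypothalamus, had the smallest p over both strains, at -0.67 ± 0.32, and Mitf, a pigment cell factor, had the smallest for the strain difference, at -0.60 ± 0.38 for the fourth of its probes. Of hem and choroid plexus genes, 3 of 12 tested probes were below 0 over both strains, against 30.6% of all probes. Ttr, the choroid plexus thyroid hormone carrier, stood at 1.68 ± 0.19 and differed between strains by -0.97 ± 0.37. Blood genes had 0 of 7 probes below 0 (30.6% of all probes), with Hbb-y, an embryonic globin, at 0.52 ± 0.15 and a strain difference of -0.75 ± 0.30. For mesenchyme the C57 median was 0.19 and the MF1 median 0.07, with Fbn2, a fibrillin, at 0.52 ± 0.22 and Col3a1, a collagen, with a strain difference of -1.23 ± 0.58. Endothelium had medians of 0.17 and -0.05. Esam, an endothelial adhesion molecule, stood at 1.04 ± 0.33 with a strain difference of 1.81 ± 0.67 (n = 4 pools). Its highest pool, MF1 pool 1 at 2.77, joined 5.91 on one array and -0.38 on the other. None of these passed limma's adjusted test, and their part in the values of the 10 genes was not tested.

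**Figure D4:**
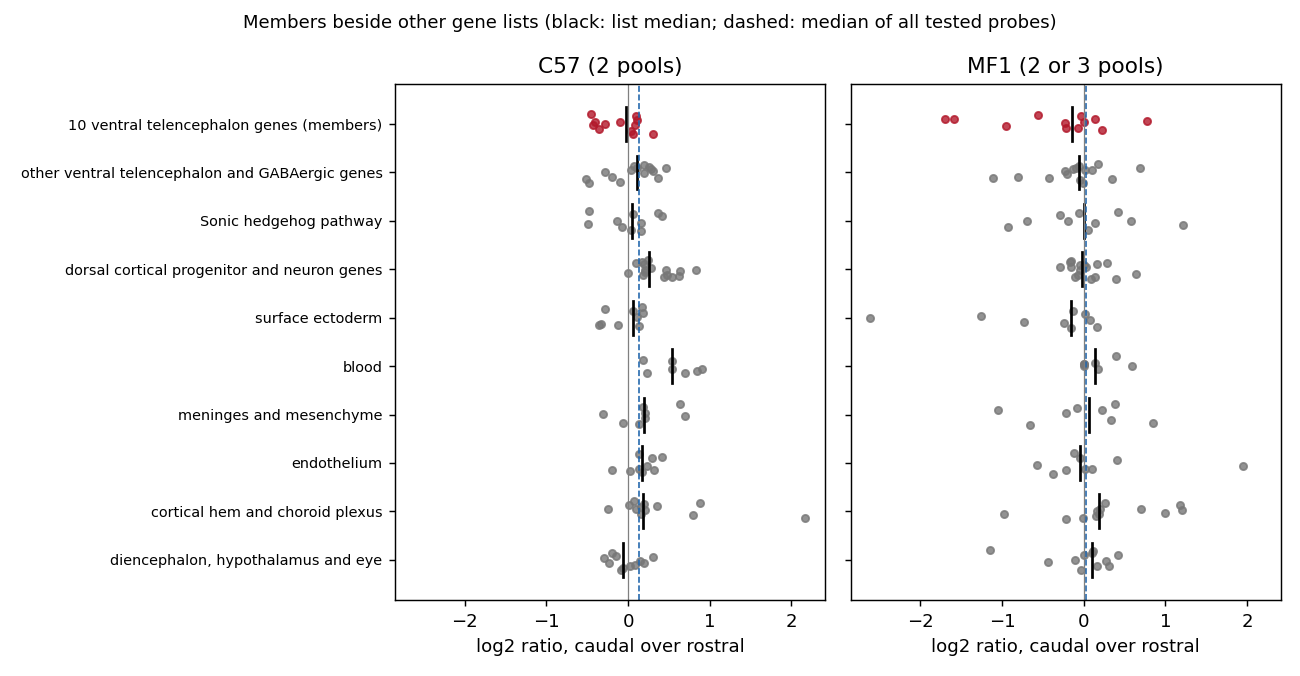
Caudal over rostral log2 ratio (horizontal axis) of each tested probe of the 10 ventral telencephalon genes, in red, and of 9 other gene lists, in grey, in C57 (left, mean of 2 pools) and MF1 (right, mean of 2 or 3 pools, as measured). Black bars are list medians and the dashed line is the median of all tested probes, 0.13 in C57 and 0.03 in MF1. In MF1 the lowest red points are Dlx1 and Dlx2, at -1.69 and -1.58, and the lowest grey point is Krt18, at -2.61 (2 pools).

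The genes most like Dlx2 were found as those with the smallest root mean square difference from it over the 10 turned arrays, among 7530 named probes measured on all of them. They were Nipa1, a magnesium transporter, at 0.59, Angpt1, the vessel growth factor angiopoietin 1, at 0.64, Apoc2, an apolipoprotein, at 0.66, Dusp6, an ERK phosphatase induced by FGF, at 0.69, and Galnt2, a glycosyltransferase, at 0.75. The median difference of all candidates was 1.53, and Dlx1 ranked 33, at 0.99. Their MF1 ratios were -1.05 ± 0.17, -1.13 ± 0.20, -1.06 ± 0.31, -1.65 ± 0.28 and -0.92 ± 0.31 in that order, and their C57 ratios 0.27, 0.24, -0.09, -0.49 and 0.41. Dusp6 was the one of the 5 below 0 in every pool, at -0.87 and -0.12 in C57 and -2.25, -1.24 and -1.47 in MF1. These genes share arrays, depth and dye with Dlx2, and the ranking is a description of 5 pools.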

How the data were processed

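Trizol extraction and amplification preceded labelling, per the labels. The authors deposited 1 log2 ratio per spot, as judged from the values. Which channel is the numerator, and any background correction or normalization, is not given in the sources used. Values at the shared ceiling of 16.61 (436) and null values were treated as missing, and 232 control spots were left out. Arrays were turned to caudal over rostral by their dye labels, not centred, and the paired arrays of a pool averaged. A probe was tested when both dye orders were there for 2 or more C57 pools and for 2 or more MF1 pools (11855 of 21766 probes). Of the 21766 probes, 16632 had 1 gene symbol, 139 several and 4995 none; all 12 member probes matched RefSeq by gene identifier.

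The fit to pool values used limma 3.58.1 under R 4.3.3 (lmFit with a coefficient per strain, eBayes, two-sided tests, Benjamini-Hochberg over all tested probes, threshold 0.05), with 2.69 prior and at most 3 residual degrees of freedom. Each strain shares the spread of both. The p-values measure the spread between pools. The fit was tested on simulated data. Members and lists were chosen with earlier results of these data known. Genes outside the members were named as the smallest p of each list, over both strains and for the strain difference, and the 5 nearest to Dlx2 by array profile; Ebf1, Sst, Npy, Smo, Trp63 and the gradient genes were chosen after their values were seen. Alternatives covered centring, scaling, ceiling values, the probe filter, dye order, single arrays, pool weights, robust variance, probe averaging, strains fitted alone, a replicate block, the threshold and each pool left out. The plots used matplotlib 3.10.9 and Python 3.11.15.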

Additional observations from a re-analysis of the deposited data

Results flagged for a closer look

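The strain difference of Dlx2, at -1.63, and that of Dlx1, at -1.41, stood out because their unadjusted limma p was under 0.05; both missed the threshold after adjustment over all probes (adjusted p = 0.999 each), and under several alternatives the unadjusted p of Dlx1 was not under 0.05 either. All 3 MF1 pools were below 0 for both genes, while the C57 pools were -0.06 and 0.17 for Dlx2 and -0.47 and -0.09 for Dlx1. No explanation was tested. The groups of 2 and 3 pools are too small to look for a single pool that lies apart.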

How the results depend on the processing

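Under the alternatives run, none of the 12 probes reached an adjusted limma p under 0.05. The number of all probes that passed over both strains, 0 as reported, was 1 with arrays centred and scaled and 1 with the 10 arrays fitted singly with a dye term and the pool as a random block. For C57 it was 2 with arrays centred and scaled and 40 with C57 fitted alone. Gad2 probe 1 turned, with an unadjusted p under 0.05, when only arrays with rostral RNA in Cy5 were used: from 0.04 to -0.68 over both strains and from 0.01 to -0.97 in MF1. Member values changed sign in 26 of 180 over both strains, 26 of 192 in C57, 20 of 192 in MF1 and 32 of 188 for the strain difference, and these 2 were the only ones among them with an unadjusted p under 0.05 on either side. The values of Dlx1 and Dlx2 kept their sign in MF1, over both strains and for the strain difference in every alternative. Over both strains, 2 members had an unadjusted limma p under 0.05 as reported (3.1% of all probes). The count was 6 with only rostral RNA in Cy5 (9.61%), 1 with only caudal RNA in Cy5 (7.04%) and 1 with single arrays (3.86%).

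Pool numbers recur in both strains but mark different animals. Deviations from the strain mean had correlations of 0.149 for number 1 and -0.022 for number 2. With the number as a replicate block, on 8924 probes, 0 probes passed for the strain difference, which was -1.76 for Dlx2 and -1.23 for Dlx1. When a pool is left out of C57, the lone pool is assumed to vary like MF1. A missing ratio limits Dlx6, Nkx2-1, Lhx6 probe 2 and Olig1 to 4 pools.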

Other observations

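Several related genes had too few ratios to be tested, and their values are given here for each pool with both dye orders and each single array of the others. Gad1, the second GABA-synthesising enzyme gene, had -2.85 and 0.31 in C57 pools 1 and 2, the first being the mean of 0.20 and -5.89, and in MF1 single arrays at -0.97 in pool 1 and -5.80 in pool 2. Gsx1, a relative of Gsx2, had 0.08 and 0.25 in C57 and -0.89 in MF1 pool 1, and single arrays at -0.02 in MF1 pool 2 and 0.30 in MF1 pool 3. Olig2, the neighbour of Olig1 in function, had 0.19 in C57 pool 2 and -0.45, 0.39 and 0.15 in MF1, and a single array at -0.42 in C57 pool 1. Lhx8, a gene of the medial eminence, had 1.22 and 0.46 in C57, the first being the mean of 2.87 and -0.43, and a single array at -2.15 in MF1 pool 3. Shh, the ventral signal itself, had 0.07 and 0.41 in C57 and single MF1 arrays at 0.84 in pool 1 and 1.04 in pool 3. Dlx3, a Dlx gene known from outside the forebrain, had -0.47 and 0.51 in C57, 1.43 in MF1 pool 2, the mean of 0.04 and 2.81, and a single array at -0.75 in MF1 pool 3. Dlx4, likewise, had -0.98 and 0.16 in C57 and single MF1 arrays at 0.59, -0.20 and 0.22 in pools 1, 2 and 3.

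Dlx6os2, a noncoding RNA gene at the Dlx6 locus, was chosen after its values were seen and had 2 probes. The first gave -1.02 and 0.31 in C57 and 1 MF1 array, in pool 3, at -1.09. The second gave -1.23 in MF1 pool 2 and single arrays at 0.85 in C57 pool 1 and 0.56 in MF1 pool 1.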
